A study of Callithrix jacchus with 11 samples.

Results

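The transcripts described here are those whose level followed, from animal to animal, the transcript with a large decrease in the hippocampus of young hand-reared marmosets, ENSCJAT00000036151.2, called the index transcript below. The hippocampus was measured in 11 male common marmosets (Callithrix jacchus), 1 animal and 1 array each. PRY are parent-reared young animals (n = 2), HRY are hand-reared young animals (n = 3), PRA are parent-reared aged animals (n = 3) and HRA are hand-reared aged animals (n = 3). Young animals were 13 to 19 months old and aged animals 88 to 164 months old. Rearing by parents or by human caretakers lasted for the first 3 months of life, and all animals then lived with peers of their own age. The labels name no drug treatment and no engineered allele. Per the study's methods the animals were anesthetized (medetomidine, midazolam, butorphanol and isoflurane) before the hippocampus was taken. Hand-reared animals were neonates from large litters, and per the study's methods the practice changed from giving caretakers the weaker neonates to giving them the sturdier ones, so that rearing was not assigned at random. The hippocampus is the part of the forebrain that forms memories of places and events, and it takes part in ending the hormonal response to stress. Hand-rearing removes the contact, carrying and feeding that marmoset infants receive from both parents.

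The members were chosen by a rule that used the measured levels. A level here is the log2 of the background-subtracted signal minus the 75th percentile of the log2 signals of the same array, so that 0 is the 75th percentile and a difference of 1 is a 2-fold difference. Of 54670 transcripts on the array, 6170 were well above background on all 11 arrays and had a standard deviation (SD) over the arrays of at least 0.5. The members were the index transcript and the 100 of these transcripts with the highest Pearson r to it over the 11 arrays, 101 transcripts in all. A further clause left out transcripts more like ENSCJAT00000012224.1, whose r to the index transcript was -0.88, but it removed 0 transcripts: the r of the members to it ran from -0.95 to -0.58. Because every array entered this choice, the group differences of the members below are descriptions without a test. A transcript that follows the index transcript closely will mostly be lower in HRY than in PRY, and the minimum SD also keeps out small differences. The size of the differences, their spread among members and the animals that carry them are therefore described below and not read as separate results.

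No gene symbol could be given to the members. The array names its probes by Ensembl transcript, and 0 of these identifiers were matched by the tables of names used here. Roles, genome positions, probe sequences and hippocampal marker genes were therefore not analysed here, and the label of hippocampus was not checked against markers. In bulk tissue, fewer cells of a type and less RNA per cell cannot be told apart.

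The arrays detected similar numbers of probes but lay on 2 slides. Between 41113 and 43435 transcript probes per array were well above background, and the 75th percentile of the signal was 2606 to 2764 intensity units on the slide that held PRY1, HRY1 and HRY2 and 1459 to 1735 on the slide that held the other 8 arrays. Spots of the same probe repeated within an array had a median SD of 0.053 to 0.082 in log2. The labels do not say whether any animals share parents. Per the study, some hand-reared animals had mothers that had been hand-reared too, and the sample titles do not say which. On the second slide HRY3 and the HRA arrays lay in 1 row and PRY2 and the PRA arrays in the other, so rearing and row cannot be told apart in the aged animals or between HRY3 and PRY2.

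The index transcript varied widely between animals, and its order followed neither stage nor rearing alone. Its level was -1.32 in PRY1 and -2.99 in PRY2. It was -6.29 in HRY1, -5.10 in HRY2 and -5.98 in HRY3. All HRY animals therefore lay below both PRY animals. In the aged animals it was -5.63 in PRA1, -4.69 in PRA2 and -3.55 in PRA3. It was -2.06 in HRA1, -1.31 in HRA2 and -4.61 in HRA3. HRA1 thus lay between the PRY animals and HRA2 beside PRY1, while HRA3 lay inside the range of the PRA animals. The group means were -2.15 ± 1.18 (SD, n = 2) for PRY, -5.79 ± 0.62 (SD, n = 3) for HRY, -4.62 ± 1.04 (SD, n = 3) for PRA and -2.66 ± 1.73 (SD, n = 3) for HRA. From the lowest to the highest the groups ran HRY, PRA, HRA and PRY. HRY and PRA overlapped, PRA and HRA overlapped, and HRA and PRY overlapped, so no neighbours in this order were apart on every array.

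In young animals the difference of the index transcript, HRY minus PRY, was -3.63 ± 0.94 (standard error, SE) in log2, a 12.4-fold lower level in HRY. In aged animals it was higher in HRA than in PRA by 1.97 ± 0.84 (SE) in log2, or 3.91-fold. The HRY signals of the index transcript were close to the limit of detection. They were 26.4 to 76.1 intensity units, against 184 and 1042 units in PRY, and were 1.44 to 3.88 times the lowest signal well above background on the same array. With another background correction, which compresses dim signals (normexp), the young difference fell to -2.24. It was -2.80 without PRY1 and -4.47 without PRY2, and the aged difference was 1.29 without HRA2 and 2.94 without HRA3.

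The 5 transcripts most like the index transcript were its neighbours in the numbering of the array design. The index transcript has design number 2828. ENSCJAT00000036156.2 (number 2829) had an r of 0.996 to it, ENSCJAT00000010554.2 (number 2831) 0.994, ENSCJAT00000036161.2 (number 2830) 0.993, ENSCJAT00000010551.2 (number 2832) 0.988 and ENSCJAT00000010560.1 (number 2827) 0.985. The 15 pairs among these 6 transcripts had r from 0.983 to 0.997 over the 11 arrays. Their spots were spread over the array, from row 8 to row 367 of 384 and with 17.8 spot positions between the closest pair. The 10 probes numbered next to them, 5 on each side, had r to the index transcript from -0.01 to 0.58. Whether the 6 probes read isoforms of 1 gene, related genes or shared sequence was not tested, so they are counted below as 1 run rather than as 6 separate observations.

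The 6 transcripts of this run moved together from array to array. On PRY1 they lay between -1.35 and -1.25, and on PRY2 between -3.03 and -2.81. On the HRY arrays they lay between -6.38 and -5.62 in HRY1, -5.10 and -4.89 in HRY2, and -6.41 and -5.69 in HRY3. Each of the 6 transcripts was lower on all HRY arrays than on either PRY array. On the PRA arrays they lay between -5.63 and -4.91 in PRA1, -4.70 and -4.28 in PRA2, and -3.72 and -3.55 in PRA3. On the HRA arrays they lay between -2.07 and -1.95 in HRA1, -1.33 and -1.24 in HRA2, and -5.04 and -4.47 in HRA3. HRA3 was thus more than 2 log2 units below the other HRA animals for the whole run, and its values lay between the lowest of PRA1 and the highest of PRA2. The young differences of the 6 transcripts were -3.63 to -3.38 and the aged differences 1.57 to 1.97.

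**Figure D1:**
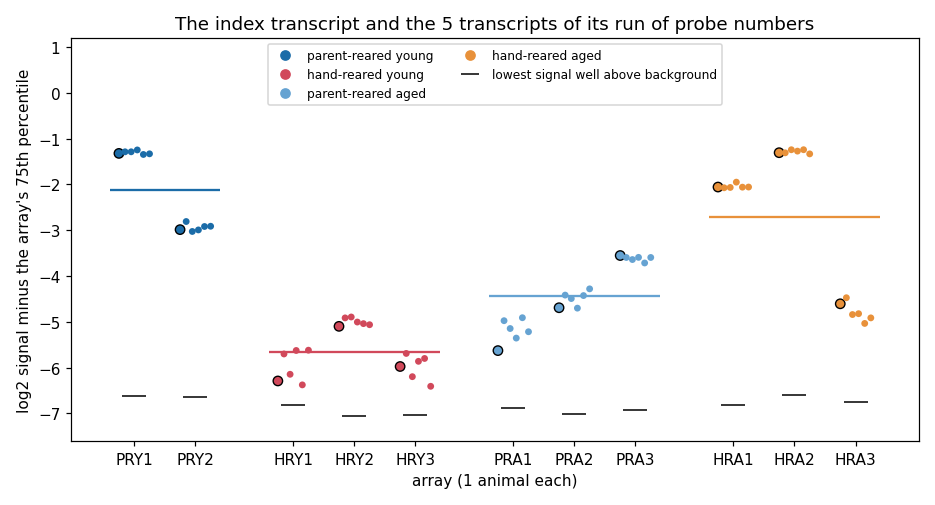
Levels of the index transcript (outlined points, at the left of each array) and the 5 other transcripts of its run of design numbers on each of the 11 arrays; the vertical axis is log2 signal minus the 75th percentile of the array, coloured lines are group means over the 6 transcripts and black marks are the lowest signal well above background. The 3 HRY arrays lie between -6.41 and -4.89, PRY1, HRA1 and HRA2 lie at -2.07 or higher, and HRA3 lies between -5.04 and -4.47.

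The other 95 members followed the index transcript less closely and with smaller swings. Their r to it ran from 0.800 to 0.917, with a median of 0.836, against a median of 0.138 over all 6170 transcripts that could be chosen. Their SD over the 11 arrays was 0.50 to 1.11, with a median of 0.63, against 1.65 to 1.82 in the run of the index transcript. The distance from their lowest to their highest array was 1.30 to 3.52, against 4.41 to 5.13 in that run. The run of the index transcript therefore stood apart from the other members in amplitude as well as in r.

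Among these 95 transcripts the closest to the index transcript was ENSCJAT00000060192.1, which was picked out after its values were seen. Its level was -1.84 and -2.16 in the PRY animals and -3.10, -2.66 and -3.36 in HRY1 to HRY3. It was -2.97, -2.91 and -3.01 in PRA1 to PRA3, and -1.91, -1.78 and -2.61 in HRA1 to HRA3. This transcript was lower in every HRY than in every PRY animal, with a difference of -1.04 ± 0.28 (SE), and higher in every HRA than in every PRA animal, with a difference of 0.86 ± 0.25 (SE). The last transcript inside the limit, ENSCJAT00000053772.1, had an r of 0.8005, a young difference of -1.08 and an aged difference of 0.40. The first outside it, ENSCJAT00000017931.2, had an r of 0.7978, a young difference of -1.21 and an aged difference of 0.47. The limit of 100 transcripts thus falls in a continuous range and marks no break. At the other end of the scale 176 transcripts had an r of -0.800 or lower, more than the 100 that had one of 0.800 or higher.

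Array by array, the other members had the same high animals as the index transcript, and the order of the rest differed in part: PRA3 was above the mean for the run of the index transcript and below it for the other members. Relative to each transcript's own mean over the 11 arrays, the median of the 95 members outside the run was 0.83 in PRY1 and 0.22 in PRY2. It was -0.79 in HRY1, -0.59 in HRY2 and -0.29 in HRY3. In the aged animals it was -0.26, -0.24 and -0.16 in PRA1 to PRA3, and 0.68, 0.83 and -0.16 in HRA1 to HRA3. PRY1, HRA1 and HRA2 were therefore the high animals and HRY1 and HRY2 the low ones. For 94 of the 101 members the highest array was PRY1, HRA1 or HRA2, and for 70 members these were the 3 highest arrays. For 86 members the lowest array was an HRY array, which was HRY1 for 53, HRY2 for 21 and HRY3 for 12.

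**Figure D2:**
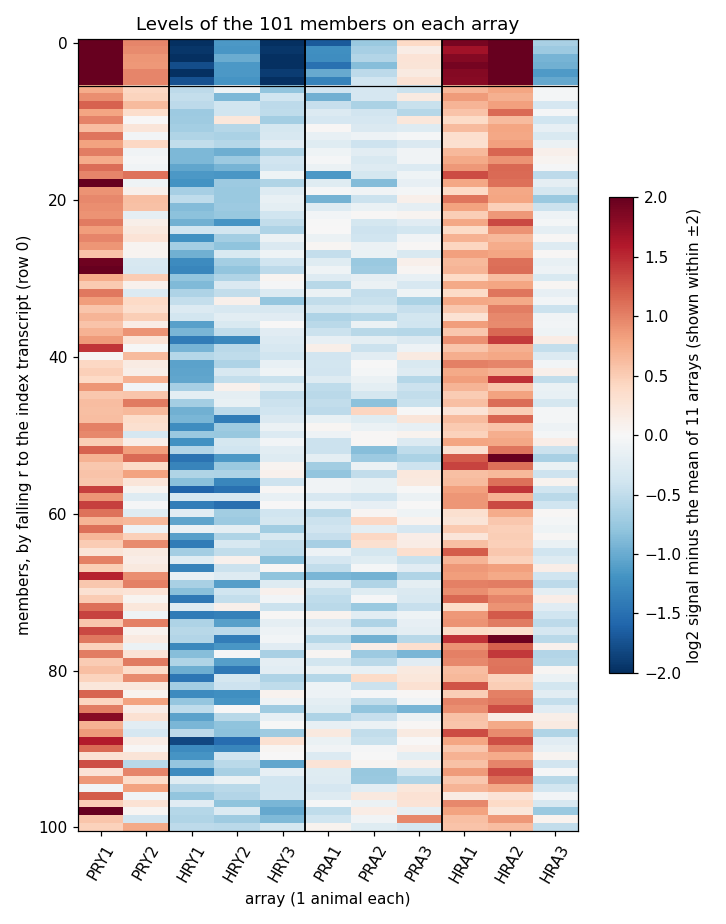
Level of each of the 101 members (rows, ordered by falling r to the index transcript in row 0) on each of the 11 arrays (columns, by group), as log2 signal minus the mean of the transcript over the arrays, with colours limited to ±2. The top 6 rows are the run of the index transcript; PRY1, HRA1 and HRA2 are above the mean in nearly all rows, and HRA3 is below HRA1 and HRA2 in all 101.

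HRA3 did not share the high levels of the other hand-reared aged animals. It was below both HRA1 and HRA2 for all 101 members. For 68 members it was below the highest PRA animal, while HRA1 and HRA2 both exceeded every PRA animal for 96 members. In the young animals PRY1 was above PRY2 for 83 of the 101 members. With 2 parent-reared young animals, the level of the PRY group rested on a pair whose medians over the 95 members were 0.83 and 0.22.

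The member medians had a common direction in each comparison, which the choice of members largely sets. All 101 members were lower in HRY than in PRY, with a median difference of -1.15 in log2, against one of -0.01 over the 42034 transcripts tested and -0.17 over the 6170 that could be chosen. The 95 members outside the run of the index transcript had young differences from -1.89 to -0.59, with a median of -1.12 or 2.17-fold. The smallest young difference was that of ENSCJAT00000052512.1. Its level was -3.73 and -4.88 in the PRY animals and -4.96, -4.96 and -4.77 in the HRY animals, so that PRY2 lay among the HRY animals and PRY1 alone was apart. By the criteria of the study, a fold change above 2 with an unadjusted p below 0.05 (here from limma), 65 of the 101 members were lower in HRY. Over all tested transcripts 0.837% met the same criteria in that direction. After adjustment of the limma p 0 members and 0 of all tested transcripts were below 0.05 in this contrast, the smallest among members being 0.333. Every HRY array was below every PRY array for 88 members, against 10.6% of the tested transcripts. Both shares follow from the choice of members, which used these arrays. Without PRY1, which leaves 1 PRY animal, the median young difference of the members was -0.85. With the RNA integrity number of each sample in the model 39 members met the criteria. The share of all tested transcripts in that model is not given here, so a change in the members and one over the whole array cannot be told apart.

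The young difference was present on both slides but was larger on the first. Within the first slide, where HRY1 and HRY2 can be set against PRY1, the median difference of the 101 members was -1.54 and all 101 were lower in hand-reared animals. Within the second, where HRY3 can be set against PRY2, the median was -0.65 and 92 of the 101 were lower. The difference of the index transcript was -4.37 on the first slide and -2.99 on the second. Each of these values compares 2 or 3 animals, so for this change of size the slide, the row on the slide and the individual animals cannot be told apart.

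In aged animals all 101 members were higher in HRA than in PRA, by 0.05 to 1.97 in log2 with a median of 0.74. The median was -0.01 over all tested transcripts and 0.18 over the 6170 that could be chosen. Here 15 members met the criteria in the higher direction, where the background is 1.01%, and 0 in the lower direction, where the background is 0.314%. After adjustment of the limma p 0 members and 0 of all tested transcripts were below 0.05, the smallest among members being 0.401. Every HRA array was above every PRA array for 33 members, against a background of 11.5%, and none of the 6 transcripts of the run of the index transcript was among them. The aged counts turned on single animals: the number of members meeting the criteria was 51 without HRA3, 2 without HRA2, 4 without HRA1 and 9 without PRA2. It was 3 with the RNA integrity number in the model. The shares of all tested transcripts under these settings are not given here, so a change in the members and one over the whole array cannot be told apart. The transcript with the smallest aged difference, ENSCJAT00000007885.2, showed -4.59, -4.15 and -4.05 in the PRA animals and -4.18, -4.06 and -4.38 in the HRA animals. Its aged levels overlapped, with a difference of 0.05 ± 0.30 (SE), while its young difference was -1.15 ± 0.34 (SE). Its r to the index transcript was 0.803, with PRY1 the highest array at -3.12 and the HRY animals at -5.13 to -4.71.

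**Figure D3:**
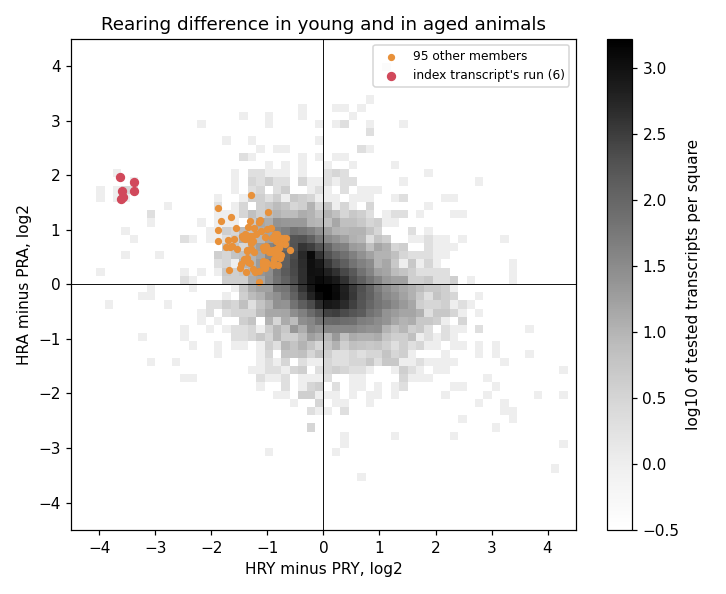
Difference between hand- and parent-reared animals in young animals (horizontal axis, HRY minus PRY) and in aged animals (vertical axis, HRA minus PRA), in log2; grey squares count all 42034 tested transcripts on a log10 scale, orange points are the 95 other members and red points the 6 transcripts of the run of the index transcript. All members lie on the side with a negative young and a positive aged difference, and the run of the index transcript lies apart at young differences of -3.63 to -3.38.

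The difference between the stages ran in opposite directions in the 2 kinds of rearing. In hand-reared animals all 101 members were higher in aged than in young animals, by a median of 1.06 in log2, and 56 met the criteria (background 0.897%). In parent-reared animals 100 of the 101 were lower in aged animals, the median difference was -0.79, and 27 met the criteria (background 3.46%). After adjustment of the limma p 0 members and 0 of all tested transcripts were below 0.05 in either stage contrast. The smallest among members was 0.368 in hand-reared and 0.180 in parent-reared animals. Over the 6170 transcripts that could be chosen the median was -0.08 in hand-reared and -0.26 in parent-reared animals. The lowest group mean was that of HRY for 86 members and that of PRA for 15. The highest was that of PRY for 66 members and that of HRA for 35. These comparisons share the groups used above, and the choice of members used all of them, so they restate the same levels from the side of stage. All aged arrays lay on the second slide, while PRY1, HRY1 and HRY2 lay on the first, so stage and slide cannot be fully told apart.

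In 31 members every HRY animal was below every PRY animal and every HRA animal was above every PRA animal. Over all tested transcripts 10.6% had the young arrangement and 11.5% the aged one, and the share with both is not given here. The choice of members used these arrays, so nothing is read from the count. ENSCJAT00000062725.1, the member with the highest mean level over the arrays and 1 of these 31, read 4.89 and 4.86 in the PRY animals and 3.42, 4.21 and 4.61 in the HRY animals. It read 4.33, 4.59 and 4.40 in the PRA animals and 5.30, 5.34 and 4.66 in the HRA animals. The young difference was -0.80 ± 0.32 (SE) and the aged difference 0.66 ± 0.29 (SE). All of these signals were above the 75th percentile of their array.

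A measure that the rule did not use is the place of the members in the design of the array. The 101 members fell into 75 runs of consecutive design numbers. Of these runs 59 held 1 member, 9 held 2, 6 held 3 and 1, that of the index transcript, held 6. The 42 members in runs of 2 or more are therefore not 42 separate observations. Members with near but not consecutive numbers were counted in separate runs, although some were alike. Numbers 40595 and 40597 read -1.74 and -1.83 in PRY1 and -3.65 and -3.71 in HRY1. The 75 runs are thus not 75 separate observations either. Runs of this kind were common among variable transcripts: over the 2031 pairs of the 6170 transcripts with consecutive numbers the median r was 0.977, while over pairs 50 places apart in the same order it was 0.135.

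The likeness of the 95 members outside the run of the index transcript to each other follows largely from their choice by r to 1 transcript on these arrays. Pairs of them had r from 0.40 to 0.998 with a median of 0.785, and their r to the 6 transcripts of the run was 0.73 to 0.93. The first principal component of their scaled levels held 78.3% of the variance over the arrays and the second held 5.68%. Over the 6069 transcripts that could be chosen but were not, the first component held 32.5% of the variance and had an r of 0.43 in size to the median of the members over the 11 arrays. The second held 20.2% with an r of 0.26, and the third held 17.1% with an r of 0.83. The members thus followed the third axis of variation of the remaining variable transcripts more closely than the first. Over the same 11 arrays the r of the member median was -0.32 to the 75th percentile of the signal and -0.48 to the number of probes well above background. All of these are descriptions over 11 arrays.

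The animals of 1 stage were then used to choose transcripts and those of the other to read them, so that the differences read took no part in ranking the list. The stage that was read entered only through the requirement of detection on every array. The index transcript itself was picked for its young decrease, and its run was therefore left out of the values. Transcripts had to be well above background on all 11 arrays, with an SD of at least 0.5 over the arrays used to choose. On the 6 aged arrays 4450 transcripts could be chosen, and the 100 most like the index transcript had r of 0.927 or higher. All 5 other transcripts of its run were among them. Of the 95 others, 9 were members as defined above.

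In the 5 young arrays these 95 transcripts had a median difference between HRY and PRY of -0.51, with quartiles of -0.84 and -0.32 and a range from -1.88 to 1.40. The median over the 4450 transcripts was -0.25. In the list 88 of 95 transcripts (92.6%) were lower in HRY, against 64.2% of the 4450. The list fell into 83 runs of consecutive design numbers and was read on the same 5 animals. Its transcripts are therefore not separate observations, and the shares here were not tested. The criteria were met by 7 of the 95 (7.37%), against 2.36% of the 4450, in the direction lower in HRY, and by 0 in the other direction, against 4.18%. With limma on the young arrays 15 of the 95 (15.8%) had an unadjusted p below 0.05, against 12.4% of the 4450, and 0 had an adjusted p below 0.05 over all tested transcripts, the smallest adjusted p being 0.795. The list leaned further down than its pool, then, without any transcript passing the adjusted threshold.

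This lean depended on which young animals were read. Without PRY2 the median of the list was -0.18, above the -0.26 of its pool, and without PRY1 it was -0.91 against -0.13. Within the first slide the list had a median of -0.33 against -0.11 in the pool. Within the second slide it had -0.53 against -0.63, so that there the list was not lower than the pool. With any other of the 11 animals left out the median of the list stayed below that of its pool.

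In the reverse direction 7931 transcripts could be chosen on the 5 young arrays, and the 100 most like the index transcript had r of 0.916 or higher. Again all 5 other transcripts of its run were among them, and 23 of the 95 others were members as defined above. Read in the 6 aged arrays, the 95 transcripts had a median difference between HRA and PRA of 0.28, with quartiles of 0.04 and 0.67, against 0.04 over the 7931. In the list 76 of 95 (80%) were higher in HRA, against 53.8% of the 7931. This list fell into 87 runs of consecutive design numbers and was read on the same 6 animals, so its transcripts are not separate observations either. The criteria were met by 4 of the 95 (4.21%), against 2% of the 7931, in the higher direction, and by 0 in the lower direction, against 1.4%. With limma on the aged arrays 29 of the 95 (30.5%) had an unadjusted p below 0.05, against 17.1% of the 7931, and 0 had an adjusted p below 0.05, the smallest adjusted p being 0.296. When the list was chosen without PRY2 its aged median was 0.04, against 0.05 in the pool, and it was 0.20 without HRA2 and 0.43 without HRA3.

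**Figure D4:**
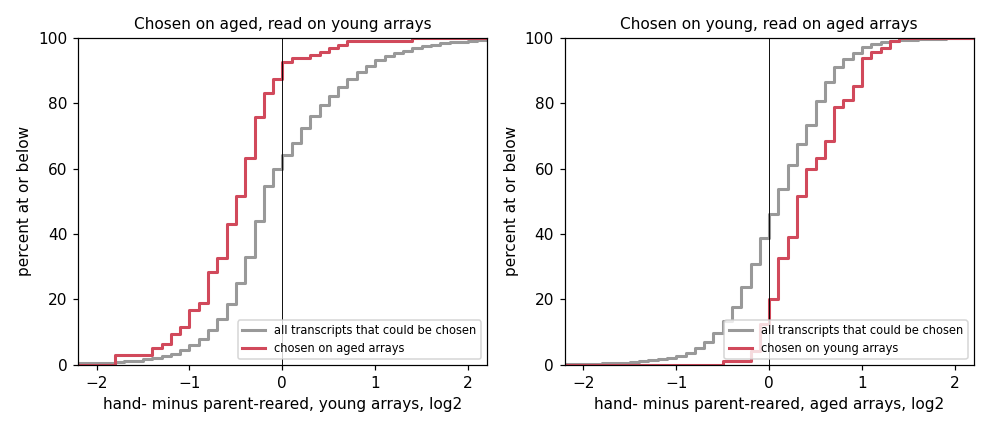
Cumulative percent of transcripts (vertical axis) at or below a given difference between hand- and parent-reared animals in log2 (horizontal axis, steps of 0.1), for lists of 95 transcripts chosen on the arrays of 1 stage and read on those of the other (red) and for all transcripts that could be chosen (grey, 4450 at the left and 7931 at the right). The list chosen on aged arrays lies to the left of its pool around a median of -0.51 in young animals, and the list chosen on young arrays lies to the right of its pool around a median of 0.28 in aged animals.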

How the data were processed

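RNA of each hippocampus was labelled with Cy3 and hybridised to a 1-colour Agilent array of marmoset transcripts. The deposited scanner files give intensity per spot, made by the authors with Agilent Feature Extraction 11.0.1.1, background-subtracted and not normalized between arrays. The deposited series table gives linear ratios to the 75th percentile of each array, which the authors computed; on the log2 scale its values differed from those used here by at most 0.0012. Here the log2 processed signal of each spot was taken minus the 75th percentile of the array. Outlier spots were left out and repeat spots averaged, which left 54641 of 54670 transcripts, and the 42034 detected above background in all animals of 1 or more groups were tested. A 4-group model was fitted with limma 3.58.1 in R 4.3.3, with Benjamini-Hochberg adjustment. Its fit and the rule of choice were run on simulated data with known answers. For the fit, simulated transcripts varied independently and changed in the same direction in both stages, unlike the members. For the rule, planted transcripts followed the index transcript closely. These runs check the computation and not the results described here. Correlations were computed with numpy 2.4.6 and pandas 2.3.3. RNA integrity numbers came from the study's own sample list and served as a covariate alone. That list names the animals by ID and the sample titles do not, so the values with RNA integrity in the model rest on a matching that the titles do not show. The number of arrays limits the precision. The limma p-values set a group difference against the spread between arrays within groups, pooled over the groups and drawn towards that of other transcripts. With 1 array per animal, animal and array cannot be told apart in that spread.

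Groups came from the sample titles. The members and lists were chosen with earlier results of these data known. The transcripts named were the index transcript, the 4 most like it, those on either side of the limit of the rule, those with the extreme young and aged differences and the one with the highest mean level; ENSCJAT00000010560.1 and ENSCJAT00000060192.1 were added after their values were seen. Lists of hippocampal markers and pathway genes could not be used without symbols. Alternatives were normexp (offset 50), quantile normalization, the deposited table, each animal left out, other filters and correlation measures, slide, replicate number and RNA integrity in the model, and the methods' t-test.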

Additional observations from a re-analysis of the deposited data

Results flagged for a closer look

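ENSCJAT00000062725.1 and ENSCJAT00000060192.1 were singled out because their groups moved in opposite directions in the 2 stages: every HRY animal was below every PRY animal, and every HRA animal was above every PRA animal. The aged difference minus the young difference was 1.46 in log2 for ENSCJAT00000062725.1 and 1.90 for ENSCJAT00000060192.1. In the limma fit of this contrast 96 of the 101 members had an unadjusted p below 0.05, against 7872 of the 42034 transcripts tested. After adjustment 0 members had a p below 0.05, the smallest being 0.205. The choice of members used the levels of all 11 arrays, so these counts are a description. The same arrangement of animals was seen in 31 of the 101 members, and its share over all tested transcripts is not given here. Groups of 2 or 3 arrays are too small for a search for single outlying arrays, so none was made.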

How the results depend on the processing

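The index transcript and its run of 6 stayed together in every alternative choice of the members that was tried, while the other members did not. The run was not complete in the lists chosen on young arrays without PRY1 or without PRY2 and read in aged animals. Each of these lists held 96 transcripts outside the run, against 95 with all young arrays. Of the 101 members, 66 were chosen again with normexp, 31 with no minimum SD, 9 with a minimum SD of 1, 29 from the young arrays, 15 from the aged arrays and 32 from the slide with both stages, and 59 to 90 with 1 animal left out, the lowest being 59 without PRY1 and 62 without HRY1. No median difference between rearings changed sign. The young difference of the index transcript was -2.24 with normexp and -4.47 to -2.80 with 1 animal left out; its aged difference was 1.29 to 2.94. The member median in young animals was -1.54 within the first slide, -0.65 within the second and -1.40 to -0.85 with 1 animal left out, and in aged animals it was 0.53 to 1.09. Members lower in HRY by the criteria numbered 33 by the methods' t-test, 39 with RNA integrity in the model and 49 to 71 with 1 animal outside PRY left out. Members past the criteria in aged animals numbered 8 with normexp, 5 by the methods' t-test, 3 with RNA integrity in the model, 42 with no minimum fold change and 2 to 51 with 1 animal left out. Beside the 42, 5165 of the 42034 tested transcripts had an unadjusted limma p below 0.05 in aged animals, in either direction. For the other settings of this section the share over all tested transcripts is not given. With alternatives added after seeing the data, the list chosen on aged arrays had a young median of -0.91 to -0.18 with 1 animal left out (-0.91 without PRY1, -0.18 without PRY2), and the list chosen on young arrays an aged median of 0.04 to 0.43. For dim transcripts such as the index transcript in HRY, the signal over background limits the size of the difference.

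For same-numbered aged animals the correlations of their deviations from the group means were 0.14, -0.15 and -0.05. Those of aged animals with different numbers ran from -0.24 to 0.29, so the numbers showed no pairing there. Young animals were not compared in this way, and 3 animals per group are too few to exclude shared parents or batches. With the replicate block in the model 56 members were lower in HRY by the criteria and 11 passed them in aged animals. The index transcript then had a young difference of -3.46 and an aged difference of 1.97, and the member medians were -1.12 and 0.74.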
